A study of Mus musculus with 10 samples.

Results

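The Igkv14 family is a group of V segments of the mouse immunoglobulin kappa light chain locus (Igk), and its 4 segments IGKV14-100, IGKV14-111, IGKV14-126 and IGKV14-130 were followed here through a sequenced Igk repertoire. All entries whose V call, without its allele, was one of these 4 names were taken. The names are written below as in the annotation (Igkv14-100 and so on). They were 4 of the 114 V segments in the table and held 5463 of its 161780 counts and 1611 of its 49079 entries. Small pre-B cells had been sorted from bone marrow of C57Bl6 mice of 6 to 12 weeks, in 5 samples of the WT genotype and 5 of the genotype rsCBE. In the series' text a delta stands before rsCBE, which marks a deletion, and what the letters stand for is not spelled out. Both groups share the strain, the age range, the tissue and the sort. Nothing says whether the samples came from separate animals, so p-values measure only the spread between these samples. The table holds no gene outside Igk, so the labelled cell type could not be checked against markers.

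A kappa gene is assembled when the RAG recombinase cuts beside 1 V and 1 J segment and the ends are joined. The joint lies in the third complementarity-determining region (CDR3), the loop whose sequence varies most between light chains. A joint keeps the reading frame only by chance, since bases can be lost from both ends, and mouse kappa joints carry few added bases because terminal transferase is low at the pre-B stage. A first joint can be replaced by a later one that uses a V segment farther upstream and a J segment farther downstream. In receptor editing, which the title of the study concerns, this replaces a light chain that makes the receptor self-reactive. J1 is therefore typical of early joints and J5 of late ones, and mouse J3 is rarely used because it cannot be spliced properly.

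All 4 segments lie on the forward strand of chromosome 6 (GRCm38), which is also the strand of the J segments, so they join J by deletion of the DNA between. Each has a leader exon and a V exon of 298 bases. Igkv14-100 (68519012 to 68519477) is nearest, 2203.1 kb from J1. Igkv14-111 (68256389 to 68256869) lies 2465.7 kb away, Igkv14-126 (67896172 to 67896642) 2825.9 kb away and Igkv14-130 (67791046 to 67791511) 2931.1 kb away. The V exons of Igkv14-111 and Igkv14-126 were the most alike, with 271 of 298 bases identical (90.9%). The other 5 pairs shared 80.2 to 81.5%. The segments are dispersed among other families. Their nearest neighbours in the table were Igkv1-99 and Igkv20-101-2 for Igkv14-100, Igkv1-110 and Igkv2-112 for Igkv14-111, Igkv11-125 and Igkv17-127 for Igkv14-126, and Igkv9-129 and Igkv1-131 for Igkv14-130. A further 4 Igkv14 names of the annotation, all pseudogenes, had no entry in the table.

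The last 60 bases of each V exon (GENCODE M21, GRCm38) are shown because the joint forms at their 3′ end. Capitals mark the 23 bases that belong to CDR3, after the codon of the conserved cysteine.
Igkv14-100 (chr6:68519418-68519477): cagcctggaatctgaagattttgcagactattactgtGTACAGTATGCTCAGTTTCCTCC
Igkv14-111 (chr6:68256810-68256869): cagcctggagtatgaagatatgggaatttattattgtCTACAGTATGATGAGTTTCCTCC
Igkv14-126 (chr6:67896583-67896642): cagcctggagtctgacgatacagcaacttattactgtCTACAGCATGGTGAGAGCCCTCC
Igkv14-130 (chr6:67791452-67791511): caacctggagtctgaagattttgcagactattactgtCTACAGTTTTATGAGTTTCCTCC
All 4 end in the same bases, CCTCC, and differ before them. The CDR3 part of the J segments is GTGGACG in J1, TGTACACG in J2, ATTCACG in J4 and GCTCACG in J5. The 4 V ends are distinct, and for 99.6% of the family's counts no other member matched the deposited CDR3 over more bases than the named one.

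A large part of the family's counts fell on a single kind of joint: the first 20 V bases of CDR3 followed directly by the last 7 J bases, 27 nucleotides in all and in frame. It loses the last 3 V bases and carries no unmatched base. With 4 V segments and the J segments J1, J2, J4 and J5 there are 16 such joints, and they held 2940 of 5463 counts (53.8%). Without WT replicate 1, which had the highest share, they held 2046 of 4177 (49.0%). The joints with J5 show how the members differ, with the J bases in capitals.
Igkv14-100 with J5: gtacagtatgctcagtttccGCTCACG
Igkv14-111 with J5: ctacagtatgatgagtttccGCTCACG
Igkv14-126 with J5: ctacagcatggtgagagcccGCTCACG
Igkv14-130 with J5: ctacagttttatgagtttccGCTCACG
The joints of Igkv14-126, the member with the most counts, show the same V end meeting the other J segments.
Igkv14-126 with J1: ctacagcatggtgagagcccGTGGACG
Igkv14-126 with J2: ctacagcatggtgagagcccGTACACG
Igkv14-126 with J4: ctacagcatggtgagagcccATTCACG

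These joints recurred from sample to sample. The Igkv14-126 joint with J5 was found in all 10 samples, with 29, 37, 29, 27 and 7 counts in WT replicates 1 to 5 and 77, 68, 37, 30 and 33 in rsCBE replicates 1 to 5. The Igkv14-100 joint with J1 was also found in all 10 samples, at 161 counts in total, and so were its joints with J2 (116 counts) and J5 (102 counts). The Igkv14-111 joint with J4 was the remaining one of this kind, at 194 counts. The most abundant clonotypes of Igkv14-130 were its joints with J5 (64 counts, 8 samples) and J2 (51 counts, 7 samples). Of 837 distinct clonotypes of the family, 633 occurred in 1 sample each and held 13.7% of its counts. The 204 found in at least 2 samples held 86.3%, the 21 found in at least 8 samples held 59.8%, and the 5 found in all 10 held 17.3%.

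By sample, these 16 joints took 69.5%, 50.7%, 59.8%, 47.7% and 58.2% of the family's counts in WT replicates 1 to 5. In rsCBE replicates 1 to 5 they took 49.3%, 45.8%, 44.8%, 43.2% and 51.9%. Most WT values lay above the rsCBE values, with means of 57.2% ± 8.55 and 47.0% ± 3.56 (SD, n = 5 each), and the ranges overlapped. In each of the 5 pairs of samples with the same replicate number the rsCBE value was the lower one. The sample titles name no such pairs, and the same count was not made for other families. Among all other V segments, the mean share of counts with a CDR3 of 27 nucleotides was also lower in rsCBE (54.5% in WT, 49.4% in rsCBE). This form of joint was singled out after its counts were seen, so no test is given. Within a J segment, 35.9% ± 9.97 of the family's J1 counts, 61.7% ± 16.6 of its J2 counts, 65.6% ± 14.3 of its J4 counts and 42.2% ± 7.59 of its J5 counts had this form (SD, n = 10).

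**Figure D1:**
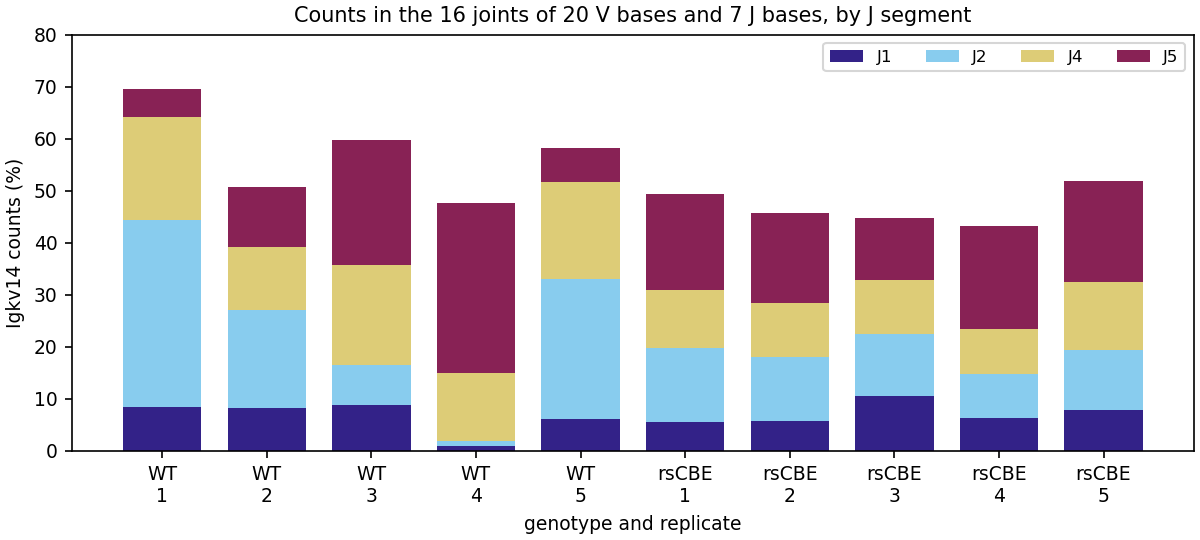
Percent of the counts of the 4 Igkv14 segments in each sample (y axis) that fell on the 16 joints of 20 V bases and 7 J bases, stacked by J segment. Each bar is 1 sample, and the totals run from 43.2% in rsCBE replicate 4 to 69.5% in WT replicate 1.

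V and J bases that abut, with nothing between, made up 71.4% of the family's counts in WT and 66.4% in rsCBE. Joints in which the same bases can be read from either segment made up 12.8% and 16.5%, and joints with bases that match neither made up 15.7% and 17.1%. Of the overlapping joints, a 25-nucleotide form recurred with J5. It keeps 22 V bases, of which the last 3 are also in J5, and it is out of frame. The capitals mark the J5 bases after the overlap.
Igkv14-111 with J5, 25 nt: ctacagtatgatgagtttcctcACG
Igkv14-126 with J5, 25 nt: ctacagcatggtgagagccctcACG
Igkv14-130 with J5, 25 nt: ctacagttttatgagtttcctcACG
With the like joint of Igkv14-100 it held 223 of the family's 1174 out-of-frame counts (19.0%). It took 1.79%, 2.45%, 2.10%, 2.80% and 3.85% of the family's counts in WT replicates 1 to 5 and 4.94%, 6.30%, 5.76%, 5.46% and 7.07% in rsCBE. All rsCBE samples lay above all WT samples, at 5.91% ± 0.814 against 2.60% ± 0.795 (SD, n = 5 each). The counts behind these values were 23, 17, 6, 3 and 7 in WT replicates 1 to 5 and 45, 51, 31, 20 and 20 in rsCBE. How many single joints of other segments lie apart in this way was not counted. The joint was singled out after its values were seen, so no test is given.

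Among 431 classes of V family, J segment and CDR3 length found in at least 8 samples, 12 (2.78%) had all rsCBE samples above all WT samples as a share of their family's counts and 4 (0.928%) had all below. Of the 16 such classes of Igkv14, 1 lay above, J5 with 24 nucleotides (0.666% ± 0.647 in WT, 1.80% ± 0.423 in rsCBE, SD, each n = 5). It was barely apart. The highest WT value was 1.40% of 286 family counts (replicate 3) and the lowest rsCBE value 1.41% of 283 (replicate 5). In WT replicates 4 and 5 this class had 0 counts. The whole class of Igkv14 with J5 and 25 nucleotides overlapped, at 3.29% ± 1.56 and 6.62% ± 0.793. With part b alone of the samples given in parts, the recurrent joint overlapped too, with 5.45% as the highest WT value and 4.38% as the lowest rsCBE value. As a share of the family's J5 counts alone, it lay between 3.75% and 20% in WT samples and between 11.2% and 16.7% in rsCBE samples, which overlapped.

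**Figure D2:**
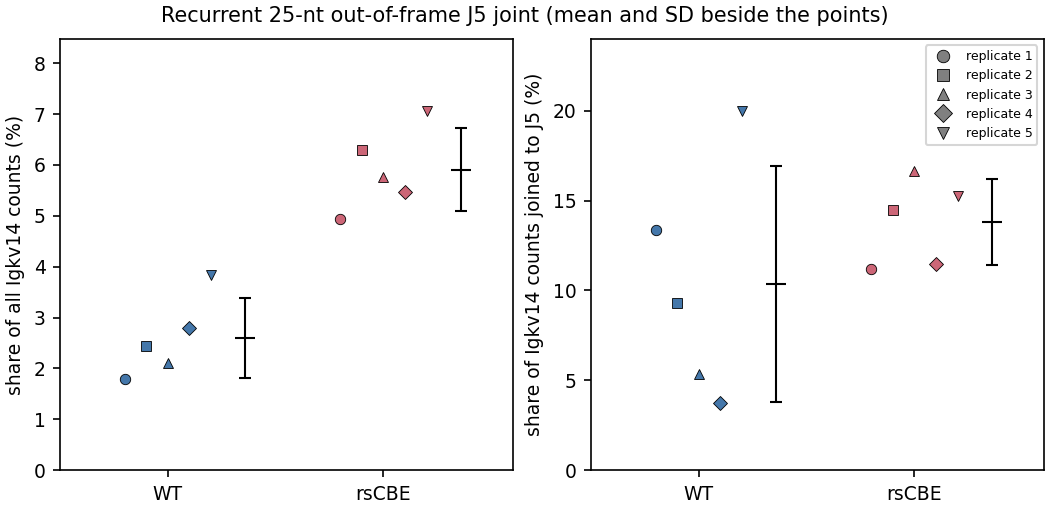
The recurrent 25-nucleotide out-of-frame J5 joint of the Igkv14 segments as a percent of all Igkv14 counts (left) and of Igkv14 counts joined to J5 (right), with 1 point per sample and the mean and SD beside the points. The genotypes are apart on the left, with 3.85% as the highest WT value and 4.94% as the lowest rsCBE value, and overlap on the right.

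The family's part of the repertoire was then compared between genotypes. It took 5.65%, 3.24%, 2.07%, 3.44% and 1.99% of all counts in WT replicates 1 to 5, and 3.78%, 3.48%, 2.95%, 2.57% and 2.43% in rsCBE. The rsCBE values all lay inside the WT range. The smallest basis was WT replicate 4, where 107 counts give a Wilson 95% interval of 2.86 to 4.14%, and intervals of this kind cover counting error only. The log2 fold change of the family, rsCBE over WT, was -0.11 ± 0.26 (SE, adjusted p 0.921 by edgeR's quasi-likelihood test over 21 families). Of those families 0 (0%) passed an adjusted p of 0.05, and 2 (9.52%) had an unadjusted p under 0.05. DESeq2 called 0 families, and the batch term and the replicate block called 2 each. Without WT replicate 1 the family's log2 fold change was 0.20, of the opposite sign, with an adjusted p of 0.662 by edgeR, and over all alternatives run the adjusted p lay between 0.390 and 0.993.

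Igkv14-126 had the highest mean share of counts of the 4, 1.33% ± 0.795 (SD, n = 10), the 25th of 114 V segments, and Igkv14-111 came next at 1.02% ± 0.306, 35th of 114. The spreads of these neighbours in the order overlapped: Igkv14-111 was the higher in 4 samples and equal in 1. As a share of clonotypes the order was the reverse, with 1.15% ± 0.274 for Igkv14-111 and 1.003% ± 0.284 for Igkv14-126 (SD, n = 10 each). Igkv14-126 took 3.49%, 1.15%, 0.847%, 1.48% and 0.742% of counts in WT replicates 1 to 5, and 1.32%, 1.28%, 1.19%, 0.927% and 0.867% in rsCBE. WT replicate 1 stood apart from all others. There, 2 clonotypes of Igkv14-126, the 27-nucleotide joints with J2 (353 counts) and J4 (205 counts), held 558 of its 794 counts, and they ranked 2nd and 6th of 6079 clonotypes in that library. Without these 2 clonotypes the share of Igkv14-126 in that sample was 1.06%. The log2 fold change was -0.47 ± 0.38 (SE, edgeR adjusted p over 98 segments 0.973), and without WT replicate 1 it was 0.11.

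The share of Igkv14-111 was 1.24%, 1.21%, 0.847%, 0.772% and 0.633% in WT and 1.57%, 1.34%, 1.01%, 0.731% and 0.875% in rsCBE. In both genotypes replicates 1 and 2, deposited as 1 library each, lay above replicates 3 to 5, deposited in 2 parts each. The means were 1.34% ± 0.165 (SD, n = 4) and 0.811% ± 0.129 (SD, n = 6). These sets of samples are called batches 1 and 2 below, a division taken from the table's structure and not from the labels. The log2 fold change between genotypes was 0.22 ± 0.26 (SE, edgeR adjusted p 0.992). Within batches 1 and 2 it was 0.25 and 0.22, without rsCBE replicate 1 it was 0.062, without WT replicate 5 0.11 and with each clonotype counted once 0.050.

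Igkv14-100, 52nd of 114, took 0.676%, 0.654%, 0.333%, 0.868% and 0.480% in WT and 0.507%, 0.558%, 0.564%, 0.717% and 0.506% in rsCBE. Its rsCBE values lay inside the WT range, and its log2 fold change in edgeR was -0.059 (SE 0.27, adjusted p 0.992). Igkv14-130, the most distant from J and 80th of 114, took 0.242%, 0.229%, 0.0434%, 0.322% and 0.131% in WT and 0.378%, 0.292%, 0.186%, 0.197% and 0.180% in rsCBE. The lowest of these rests on 6 counts. Its change in edgeR was 0.41 on the log2 scale (SE 0.47, adjusted p 0.992), with 0.14 without WT replicate 3 and 0.20 without rsCBE replicate 1. The order of the mean shares thus did not follow the distance from J. Of all 98 V segments tested 0 (0%) passed the adjusted threshold in edgeR and 0 in DESeq2, and 7 (7.14%) had an unadjusted p under 0.05, none of them an Igkv14 segment. The batch term called 2 segments (2.04%) and the replicate block 1 (1.02%), none of the family.

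**Figure D3:**
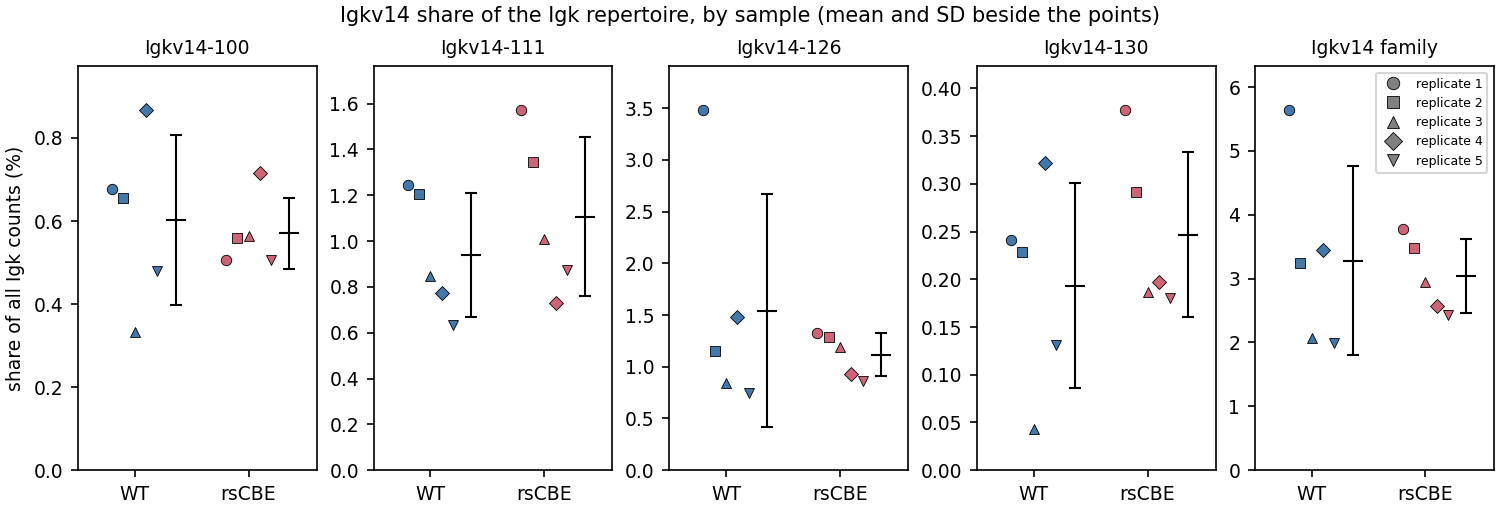
Share of all Igk counts (y axis, percent, a scale of its own in each panel) of the 4 Igkv14 segments and of their sum, with 1 point per sample and the mean and SD (n = 5) beside the points. In each panel the genotypes overlap, and WT replicate 1 (circle) stands apart for Igkv14-126 at 3.49%.

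Segments that resembled the family in how their share varied over the 10 samples were Igkv5-39 (Pearson r 0.91 of log2 shares), Igkv1-99 (0.82) and Igkv1-110 (0.79), given as a description of samples that also share depth and library structure. Among the members, r ran from 0.0068 for Igkv14-100 with Igkv14-111 to 0.73 for Igkv14-100 with Igkv14-130. Chromosomal neighbours ranged from well above to well below the members in share. Igkv17-127, beside Igkv14-126, took 2.16% ± 0.225 in WT against 2.45% ± 0.216 in rsCBE (SD, each n = 5), the 9th highest mean share. Igkv1-131, beside Igkv14-130, took 0.0118% and 0.0123%, 106th of 114. Others lay close to a member: Igkv11-125, on the other side of Igkv14-126, took 0.954% ± 0.393 and 1.40% ± 0.292 (31st), and Igkv2-112, beside Igkv14-111, took 0.681% ± 0.185 and 0.900% ± 0.156 (45th). Another name, Igkv14-87-2, had no entry of that name in the annotation and took 0.180% ± 0.0534 and 0.173% ± 0.0414 (SD, n = 5 each). It was kept out of the family, belongs to the other V segments in the comparisons below and stands as a family of its own in counts of families. Over the 8 samples with at least 10 counts, its J1 share differed from that of all other V segments by 0.10 percentage points, its in-frame share by -0.41 and its share of 27-nucleotide CDR3 by -6.83, none past the adjusted threshold (exact sign-flip adjusted p over 91 segments 0.982, 0.935 and 0.487). Its J5 share was higher by 6.09 (exact adjusted p 0.0284). Of the 20 families, this name among them, 18 (90%) passed in J5 share, 8 (40%) as higher and 10 (50%) as lower.

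J use was compared between the family and all other V segments of the same sample. In WT replicates 1 to 5, J1 took 17.7%, 23.6%, 19.6%, 7.48% and 18.1% of the family's counts, against 31.5%, 30.7%, 34.1%, 28.4% and 33.9% of the counts of all other V segments. In rsCBE replicates 1 to 5 it took 16.1%, 18.4%, 25.1%, 18.0% and 18.0% of the family's counts, against 22.6%, 21.6%, 27.1%, 26.1% and 25.4%. The family's share was the lower one in 10 of 10 samples. The mean difference was -9.91 ± 6.04 percentage points (SD, n = 10), with an exact sign-flip p of 0.00195, the smallest that 10 samples can give. Adjusted over the 20 families tested in the same way, the exact p was 0.00355. With each clonotype counted once the difference was -4.39 percentage points (exact p adjusted over 4 measures 0.0417, 0.00391 to 0.167 over all alternatives). J1 differed from the rest for most families. Of 20 families, 17 (85%) passed, 8 (40%) as lower and 9 (45%) as higher, and Igkv14 had the 7th lowest difference.

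The 4 members did not use J1 alike. Igkv14-100, the nearest to J, had a mean J1 share of 36.0% ± 13.6 and Igkv14-126 of 10.7% ± 5.73 (SD, n = 10 each). In WT replicates 1 to 5 J1 took 44.2%, 51.4%, 34.8%, 3.70% and 36.4% of the counts of Igkv14-100, and 33.6%, 29.2%, 50.5%, 34.3% and 42.4% in rsCBE. For Igkv14-126 it took 12.5%, 17.8%, 19.7%, 2.17% and 10.3% in WT and 9.72%, 10.4%, 14.3%, 6.82% and 2.97% in rsCBE. Igkv14-126 was below Igkv14-100 in 10 of 10 samples, a difference of -25.4 ± 11.3 percentage points (SD, exact sign-flip p 0.00195, adjusted over 6 pairs 0.0117). WT replicate 4 was the lowest WT sample for both.

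Igkv14-111 joined J1 in 17.1% ± 4.84 of its counts (SD, n = 10), below Igkv14-100 in 9 of 10 samples (exact sign-flip p 0.0117, adjusted 0.0234). Igkv14-130 had 21.6% ± 15.8 over the 9 samples with at least 10 counts, below Igkv14-100 in 8 of 9 (exact adjusted p 0.0234). Igkv14-126 was below Igkv14-111 and Igkv14-130 (exact adjusted p 0.0422 each), while Igkv14-130 and Igkv14-111 could not be ordered (exact adjusted p 0.566). These comparisons of J1 between members were added after the values were seen. The number of pairs past the threshold was 5 of 6, and 2 with each clonotype counted once. It was 3 when WT replicate 1 or any 1 of the 5 rsCBE samples was left out, and 0 within either genotype, where 5 samples cannot reach the threshold. Against all other V segments, adjusted over 91 segments, Igkv14-126 (-17.4 percentage points) and Igkv14-111 (-10.8) were lower, both with an exact adjusted p of 0.00468. Igkv14-100 (8.27, exact adjusted p 0.114) and Igkv14-130 (-5.58, exact adjusted p 0.305) did not pass. Of the 91 segments 67 (73.6%) passed in either direction, 39 (42.9%) as lower and 28 (30.8%) as higher.

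**Figure D4:**
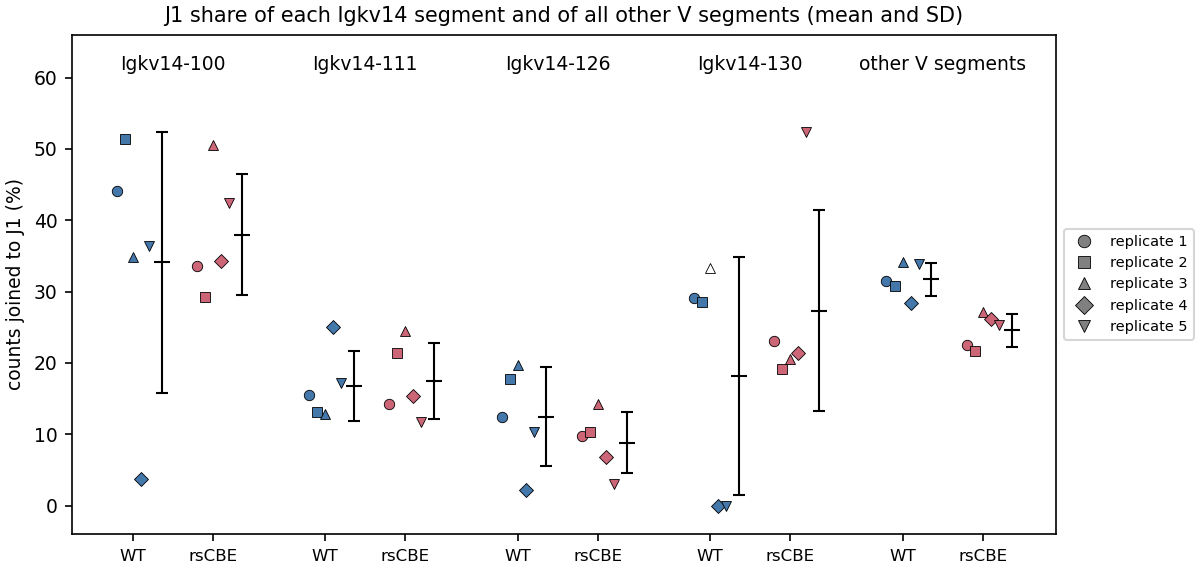
Percent of counts joined to J1 (y axis) for each Igkv14 segment and for all other V segments, by genotype, with 1 point per sample and the mean and SD (n = 5) beside the points. The open symbol has fewer than 10 counts. Igkv14-126 lies lowest, at a mean of 10.7% over all samples, and Igkv14-100 highest of the 4, at 36.0%.

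J5 was used by 38.9% ± 17.3 of the family's counts and 33.8% ± 6.11 of the other counts (SD, n = 10), higher in 7 of 10 samples (exact sign-flip p 0.346, over 20 families adjusted to 0.364). The mean difference dropped from 5.15 percentage points to 1.13 without WT replicate 4. Of the 20 families 18 (90%) passed. The spread was larger in WT, where the family's J5 share was 13.4%, 26.4%, 39.2%, 74.8% and 19.2% in replicates 1 to 5. In rsCBE it was 44.2%, 43.6%, 34.6%, 47.5% and 46.3%. The highest, WT replicate 4, had 107 family counts on 27 clonotypes, of which the top 2, both with J5, held 41.1%. Against the 35 other distal V segments alone, those numbered 91 and above, the difference in J5 was 10.9 percentage points (exact sign-flip adjusted p 0.0293). Without WT replicate 4 it was 6.98 (exact adjusted p 0.0586), and it also missed the threshold without WT replicate 3 or without rsCBE replicate 1, 2, 4 or 5 (10.3 to 11.0 percentage points, exact adjusted p 0.0508 to 0.0586). Between members, 0 of 6 pairs passed an adjusted p of 0.05 in J5 share, and 0 an unadjusted one. The lowest exact sign-flip p was 0.0684, for Igkv14-126 (43.4% ± 23.7) over Igkv14-100 (34.4% ± 22.7, SD, n = 10 each).

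The study's title concerns receptor editing, so J use of the family was compared between genotypes. J1 took 17.3% ± 5.97 in WT against 19.1% ± 3.45 in rsCBE (SD, each n = 5, exact permutation p 0.635, adjusted over 4 measures 0.847). J5 took 34.6% ± 24.4 and 43.2% ± 5.10 (SD, each n = 5, exact permutation p 0.5, adjusted 0.847). The groups overlapped in both. Without WT replicate 4 the difference in J5 was 18.7 percentage points (exact permutation adjusted p 0.0952, over all alternatives 0.0952 to 1) instead of 8.66, without WT replicate 1 it was 3.36 and without WT replicate 5 it was 4.83. With each clonotype counted once it was 3.79 and with part b alone 4.87. Without WT replicate 4 the difference in J1 was -0.61 instead of 1.84. Within batch 1 the difference in J5 was 24.0 percentage points and within batch 2 it was -1.58. For J1 it was -3.38 within batch 1, 5.32 within batch 2 and 0.752 with part a alone.

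In all other V segments together, J1 went from 31.7% ± 2.37 in WT to 24.6% ± 2.35 in rsCBE and J5 from 28.5% ± 3.59 to 39.0% ± 1.13 (SD, n = 5 each). The family's J1 share minus that of the others was -14.4 ± 4.95 percentage points for WT and -5.42 ± 2.64 for rsCBE samples (SD, each n = 5). These gaps differed by 8.99 percentage points (exact permutation p 0.0238), which did not pass after adjustment over 4 measures (0.0952). The gap was smaller in rsCBE in 5 of 5 pairs of the same replicate number (exact sign-flip p 0.0625, the smallest that 5 pairs can give). For J5 the gap between the family and the others was 6.10 percentage points in WT and 4.20 in rsCBE (exact permutation p 0.921).

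By V-J pair, 13 of the family's 20 possible pairs held enough counts to be tested, and none passed. Igkv14-126 with J2 took 1.74%, 0.313%, 0.101%, 0.0643% and 0.196% of all counts in WT and 0.220%, 0.219%, 0.148%, 0.141% and 0.112% in rsCBE. Its log2 fold change of -1.57 ± 0.66 (SE, p 0.0304, adjusted p 0.462 by edgeR) rested on WT replicate 1, without which it was -0.082. Igkv14-111 with J5 took 0.351%, 0.346%, 0.347%, 0.0965% and 0.109% in WT and 0.706%, 0.515%, 0.329%, 0.351% and 0.386% in rsCBE. The rsCBE values of replicates 3 and 4 reached into the WT range and the other 3 lay above it. For this pair the log2 fold change in edgeR was 0.80 (SE 0.40, adjusted p 0.503), and 0.26 with each clonotype counted once (adjusted p 0.643, 0.0518 to 0.792 over the alternatives in edgeR). Of all 270 pairs tested 0 (0%) passed and 25 (9.26%) had an unadjusted p under 0.05, with 3 called by DESeq2. DESeq2 gave an adjusted p to 80 of the 270 pairs, so its 3 calls are 3.75% of those. Only 1 of the family's 13 pairs had one (Igkv14-126 with J5, 0.796), and at an unadjusted p under 0.05 in DESeq2 lay 2, Igkv14-126 with J2 (p 0.0332) and Igkv14-111 with J5 (p 0.0486). The batch term called 7 pairs (2.59%) and the replicate block 0, and within batch 1 alone 35 were called. The 35 were 12.3% of the 285 pairs tested in that batch, and 4 of the family's 16 tested there were among them. By edgeR, Igkv14-126 with J2 fell (log2 fold change -2.22, adjusted p 0.0132, 0.0132 to 0.981 over the alternatives that gave it one), as did Igkv14-126 with J1 (-1.29, adjusted p 0.0413). Igkv14-126 with J5 (1.04, adjusted p 0.0234) and Igkv14-130 with J5 (1.77, adjusted p 0.0195) rose. Batch 1 holds 2 samples per genotype, among them WT replicate 1, with its 1.74% for the J2 pair. In batch 2 the log2 fold changes of the J2 pair and of these J5 pairs were 0.081, -0.26 and 0.11, with an edgeR adjusted p of at least 0.964. Igkv14-126 with J1 held too few counts in batch 2 to be tested. J3 was rare: no member held more than 3 counts with it.

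A joint was counted as in-frame when its CDR3 length was a multiple of 3 and no stop codon interrupted it. In WT replicates 1 to 5 the in-frame share of the family was 86.6%, 80.3%, 86.7%, 60.7% and 79.1%, against 76.0%, 70.9%, 68.9%, 65.7% and 70.5% for all other V segments. In rsCBE it was 77.6%, 70.9%, 69.9%, 74.9% and 81.3%, against 69.6%, 65.2%, 63.4%, 65.9% and 60.8%. The family was higher in 9 of 10 samples, all but WT replicate 4. The mean difference was 9.11 ± 6.89 percentage points (SD, n = 10, exact sign-flip p 0.00391, adjusted over 20 families 0.0146), the 2nd highest of the 20. Of these families 9 (45%) passed in either direction and 6 (30%) as higher. With part b alone the exact p, adjusted over 4 measures, was 0.0599 instead of 0.00781, and over all alternatives it lay between 0.00391 and 0.167.

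By J segment, the family's in-frame share was above that of the others in 10 of 10 samples for J2 (84.1% ± 7.98 against 71.8% ± 3.71) and for J4 (82.7% ± 10.1 against 64.8% ± 4.69), and in 7 of 10 for J1 (76.3% ± 19.8 against 71.5% ± 3.95) and for J5 (67.2% ± 9.50 against 63.6% ± 5.80, SD, n = 10 each). These values by J are a description. Without the 16 joints of 20 V and 7 J bases, which are all in frame, the family's in-frame share was 52.2% ± 11.7 (SD, n = 10). Taking out only in-frame joints must lower this share. No such joints were taken from the other V segments, so the value cannot be set against theirs.

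Of single members, Igkv14-126 had an in-frame share of 80.2% ± 7.98 (SD, n = 10), above the other V segments in 10 of 10 samples by 12.4 percentage points (exact sign-flip p adjusted over 91 segments 0.0162), the 2nd highest of 91. Of the 91, 26 (28.6%) passed in either direction. Igkv14-111 (75.2% ± 9.34, exact adjusted p 0.0748), Igkv14-100 (73.0% ± 18.9, exact adjusted p 0.623) and Igkv14-130 (73.4% ± 13.5 over 9 samples, exact adjusted p 0.422) did not pass. None of the 6 pairs of members passed in in-frame share, with exact sign-flip p of at least 0.234. The WT sample that stood lowest for Igkv14-100, replicate 4 at 22.2%, had 27 counts of it, and a single out-of-frame clonotype of 26 nucleotides with J5 held 17 of them (63.0%).
Igkv14-100 with J5, 26 nt: gtacagtatgctcagtttcctccACG
It keeps all 23 V bases, and elsewhere it was seen with 1 count.

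Between genotypes the family's in-frame share was 78.7% ± 10.6 in WT against 74.9% ± 4.73 in rsCBE (SD, each n = 5, exact permutation p 0.5, adjusted 0.847), and the groups overlapped. The difference of -3.79 percentage points was -8.28 without WT replicate 4 (exact permutation adjusted p 0.0952), -1.81 without WT replicate 1 and -1.79 without WT replicate 3. With part a alone it was -5.70 and with part b alone -1.11. It was -9.21 within batch 1 and -0.19 within batch 2. For Igkv14-130 it was 76.4%, 73.5%, 100%, 100% and 83.3% in WT and 69.2%, 72.1%, 50.0%, 64.3% and 71.4% in rsCBE. All rsCBE samples lay below all WT samples, but 3 WT samples had 6, 10 and 12 counts. Among 88 V segments, 3 (3.41%) had all rsCBE samples below all WT samples in this measure.

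The mean CDR3 length of the family varied little between samples. Weighted by counts, the mean length was 26.87 ± 0.103 nucleotides against 26.61 ± 0.0761 in the other V segments (SD, n = 10), longer in 9 of 10 samples by 0.261 ± 0.155 (exact sign-flip p 0.00586, adjusted over 20 families 0.00977). Of 20 families 12 (60%) passed in either direction and 9 (45%) as longer. The family's value was 26.87 ± 0.138 in WT against 26.86 ± 0.0684 in rsCBE (SD, each n = 5, exact permutation p 0.865).

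A CDR3 of exactly 27 nucleotides was held by 84.0%, 72.6%, 85.7%, 58.9% and 75.8% of the family's counts in WT replicates 1 to 5 and by 67.4%, 62.3%, 60.2%, 62.3% and 70.3% in rsCBE. This length was chosen after the family's joints of 27 nucleotides were seen, which favours the family in advance. The p-values of this paragraph therefore cannot be read as tests of a length set beforehand. The family exceeded the other V segments in 10 of 10 samples, at 70.0% ± 9.58 against 52.0% ± 4.70 (SD, n = 10), by 18.0 percentage points (exact sign-flip p 0.00195, adjusted over 20 families 0.00651), the 2nd highest of 20. Of these 15 (75%) passed in either direction and 11 (55%) as higher. Igkv14-126, at 76.3% ± 11.1, was the 2nd highest of 91 segments (exact adjusted p 0.00846), and Igkv14-111 (64.2% ± 12.5, exact adjusted p 0.0173) and Igkv14-100 (68.5% ± 18.1, exact adjusted p 0.0444) also passed, while Igkv14-130 did not (65.2% over the 9 samples with at least 10 counts, exact adjusted p 0.102). Of the 91, 54 (59.3%) passed in either direction and 34 (37.4%) as higher.

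**Figure D5:**
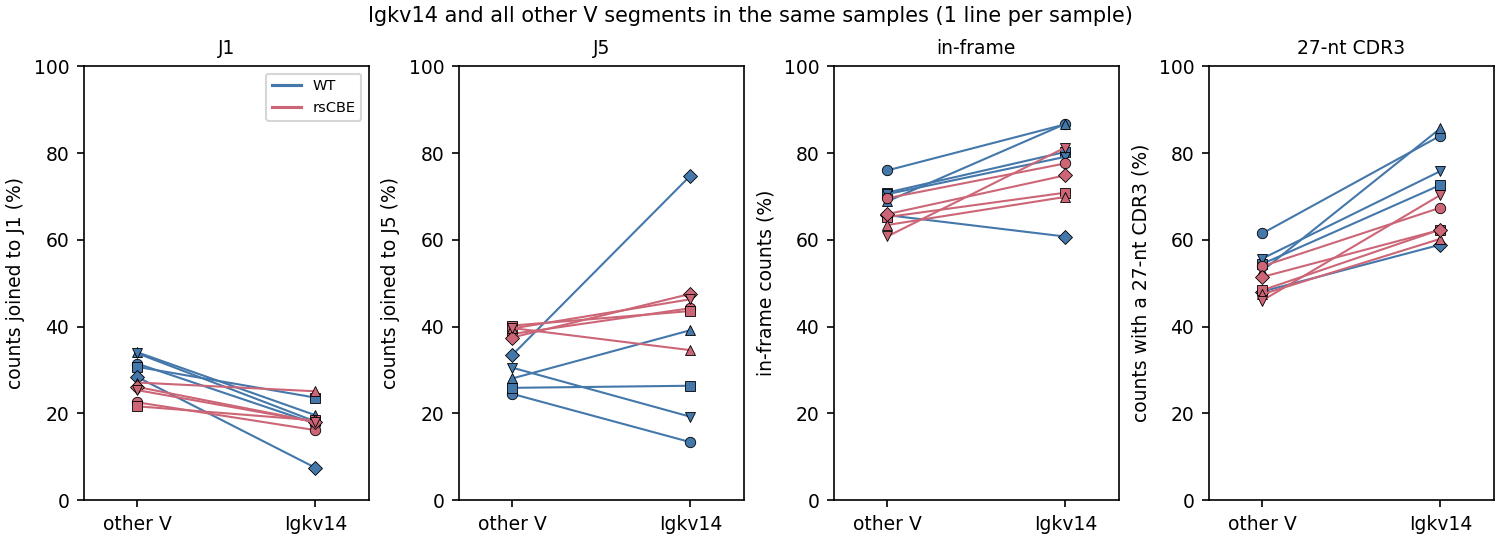
Counts joined to J1, counts joined to J5, in-frame counts and counts with a 27-nucleotide CDR3, each as a percent (y axis), in all other V segments and in Igkv14. Each line joins the values of 1 sample, with the replicates by symbol (circle, square, triangle, diamond and inverted triangle for 1 to 5). J1 falls from left to right in 10 of 10 samples and the share of 27 nucleotides rises in 10 of 10.

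The share of 27-nucleotide CDR3 was 75.4% ± 10.7 in WT against 64.5% ± 4.18 in rsCBE (SD, each n = 5), a change of -10.9 points (exact permutation p 0.0794). In the other V segments it was 54.5% ± 4.85 and 49.4% ± 3.19, a change of -5.07 (exact permutation p 0.0794). The measure was added after the values were seen. Without WT replicate 4, the lowest WT sample, the family's difference was -15.0 percentage points (exact permutation p 0.00794), and with each clonotype counted once it was -15.3 (exact permutation p 0.0476). It was smaller without singletons (-9.99, exact permutation p 0.159), with part b alone (-7.99, exact permutation p 0.294), without WT replicate 1 (-8.73) or 3 (-8.31, exact permutation p 0.159 each) and within batch 2 (-9.18, exact permutation p 0.4). Within pairs of the same replicate number it was lower in rsCBE in 4 of 5 (exact sign-flip p 0.125).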

How the data were processed

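Amplicon libraries of Igk RNA were read on a MiSeq as 151-bp pairs, per the labels' protocols. The deposited count column holds whole-number counts per V call, J call and CDR3 in 16 libraries, per the file headers, with no normalization. The build mm10 is named in the submitters' processing notes. The caller, germline set, filters and whether a count is a read or a molecule are not given in the sources used here. How similar members were told apart before deposition is not given either, so their split is uncertain.

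Alleles were merged, 49 duplicate lines added to their partners, and parts a and b of replicates 3 to 5 added. Totals were 3109 to 24083 counts per sample. V segments, families and V-J pairs of the whole table were tested with edgeR 4.0.16 (R 4.3.3; quasi-likelihood F-test, library size the total count, filterByExpr, Benjamini-Hochberg at 0.05), with DESeq2 1.42.0 as an alternative. Other values used two-sided exact permutation tests between genotypes (smallest p 0.00794) and exact sign-flip tests within samples, with families and segments included at 10 or more counts in at least 8 samples. edgeR was checked on simulated counts of V-J pairs with large changes of known size. The permutation test between genotypes was checked on simulated normal values. The spread in both was set and not taken from these data, and the sign-flip test was checked only on a single fixed example. Likeness used log2 of the share plus 0.01%. Deviations of same-numbered samples from their genotype's mean correlated at 0.80 and 0.79 for replicates 1 and 2. For replicates 3, 4 and 5 they correlated at 0.59, 0.11 and 0.40. Same-numbered samples always share a batch, and the sample titles name no pairs, so pairing cannot be told apart from batch. The main tests between genotypes were unpaired, and comparisons by replicate number stand beside them as alternatives. The alternatives are given at the end. Names were matched to GENCODE M21 (GRCm38) for 112 of 114 V segments. No genome sequence was used here.

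Members and measures were chosen with earlier results of these data known. The named segments are the 4 members, the 3 segments most correlated with their sum, chromosomal neighbours and other Igkv14 names. Clonotypes are the 2 per member with the highest share of all counts summed over the samples, which need not be the 2 with the most counts, and further joints were chosen after their values were seen.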

Additional observations from a re-analysis of the deposited data

Results flagged for a closer look

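In 42 groups of 5 sample values of the family and its members, 7 had 1 sample far from the next: as a share of the group's range, that distance passed the limit of 0.71 set by Dixon's test. Chance gives about 1 in 20, or 2.1 of 42, and the groups share samples and counts, so they are not independent. In WT replicate 1, Igkv14-126 took 3.49% of the repertoire, against 0.742 to 1.48% in the other WT samples. In WT replicate 4, J5 took 92.6% of Igkv14-100 counts against 11.0 to 29.5%, and its in-frame share was 22.2% against 72.7 to 82.6%, on 27 counts. In rsCBE replicate 3, the family's J1 share was 25.1%, against 16.1 to 18.4%. In rsCBE replicate 4, the family's CDR3 length was 26.74 nucleotides, against 26.88 to 26.91, and Igkv14-100 took 0.717% of the repertoire, against 0.506 to 0.564%. In rsCBE replicate 5, J1 took 52.4% of Igkv14-130 counts, against 19.1 to 23.1%, on 21 counts.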

How the results depend on the processing

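Depth is a limit for the members: Igkv14-130 had 6 to 91 counts per sample, and WT replicate 4 held 107 family counts. Counts are not known to be molecules, and 5 samples a group leave small differences undetected. Leaving out WT replicates 1 and 4 together, the measures named as added, and the settings of the added measures were chosen after seeing the data. The replicate block called 1 V segment, 2 families and 0 pairs, the batch term 2, 2 and 7, DESeq2 3 of the 80 pairs it gave an adjusted p, and batch 1 alone 35 pairs. The block changed no other call it was run on. Leaving out 1 sample gave 0 calls in each.

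The family's log2 fold change turned positive with each clonotype once (0.045), without WT replicate 1 (0.20), without WT replicates 1 and 4 (0.32) and in batch 2 (0.15), and ran from -0.25 to 0.20 with 1 sample left out. Igkv14-100 turned positive without WT replicate 4 (0.082), without both (0.21) and in batch 2 (0.19), running from -0.22 to 0.082 with 1 sample left out, and Igkv14-126 without WT replicate 1 (0.11), without both (0.29) and in batch 2 (0.025), running from -0.65 to 0.11. Igkv14-130 ran from 0.14 to 0.59 and was 0.85 without both. In batch 1 the log2 fold changes of the family, Igkv14-100 and Igkv14-126 were -0.29, -0.32 and -0.83. Igkv14-126 with J2 turned in batch 2 (0.081) and was -0.75 with the replicate block. The genotype difference in J1 turned without WT replicate 4 (-0.61), without both (-1.31) and in batch 1 (-3.38), and that in J5 in batch 2 (-1.58). That in CDR3 length (-0.0113) turned without singletons (0.00311), with part b (0.0166) and in batch 2 (0.0183), was -0.0998 with equal weight per segment, and ran from -0.0673 to 0.0189 with 1 sample left out. J1 ran from -0.61 to 3.43, J5 from 3.36 to 18.7 and the in-frame share from -8.28 to -1.79.

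Against other V, J1 (-14.4 in WT, -5.42 in rsCBE), in-frame share (8.30 and 9.91) and length (0.256 and 0.267) no longer passed within 1 genotype, since 5 samples cannot give an exact p under 0.0625. The in-frame share missed with part b (7.86), and J5 passed against distal V alone (10.9), which 6 of the 10 samples each ended when left out. Pairs of members differing in J1 were 2 with each clonotype once or without both WT samples, 0 within 1 genotype, and 3 to 5 with 1 sample left out. The share of 27-nucleotide CDR3 passed with each clonotype once (-15.3), part a (-13.0) and without both WT samples (-13.5), and ran from -15.0 to -8.31 with 1 left out. The cause of these changes was not tested.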
